A study of Mus musculus with 30 samples.

Results

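Plasma cells that had switched to IgE were compared with naive B cells of the same infection, on 4 IgE plasma cell arrays and 3 naive arrays of the 30 arrays in the series, chosen by their titles. The question was what an antibody-secreting cell keeps, loses and gains relative to a resting B cell. All cells came from mesenteric lymph nodes of CeGFP BALB/c mice, which carry a knocked-in IRES-GFP in the 3'UTR of the epsilon heavy chain gene per the labels, on day 10 of infection with the worm Nippostrongylus brasiliensis. The plasma cell gate was IgE+ GFP+ CD95+ CD138+. The naive gate was B220+ and negative for CD95, CD138, IgG1 and IgE. The naive cells were therefore taken from infected mice and not from resting animals. Every array holds cells of 3 pooled mice, sorted separately from the other arrays, so errors and p-values below describe the spread between such pools. The sources used here give neither the age of the mice nor whether plasma cells and naive cells shared a pool. The other groups of the same experiment set the spread of the model, and 2 of them were also compared with IgE plasma cells. These were 3 arrays of IgE germinal centre cells (IgE+ GFP+ B220+ CD95+ CD138-) and 2 of IgG1 plasma cells (IgG1+ GFP+ CD95+ CD138+), whose GFP marks a rearrangement to Cepsilon on the chromosome that is not expressed.

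A plasma cell is the end stage of the B cell lineage and exists to secrete antibody. The transcription factors IRF4, BLIMP-1 (Prdm1) and XBP1 shut down the B cell programme, widen the endoplasmic reticulum (ER) and raise immunoglobulin synthesis, while PAX5, BACH2 and BCL6 hold B cells in the earlier state. The ER answers a protein load through the unfolded protein response, whose sensors IRE1 (Ern1), ATF6 and PERK (Eif2ak3) act on chaperone, degradation and amino acid genes. Early plasma cells of a lymph node, often called plasmablasts, still divide, which mature plasma cells of the bone marrow do not.

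Values are log2 signals, on which a difference of 1 is a change of 2-fold. Differences, also those in brackets after a gene, are IgE plasma cells minus naive cells unless another comparison is named, and intervals are 95% intervals. The arrays had medians of 5.31 to 5.36 in plasma cells and 5.38 to 5.47 in naive cells. Arrays correlated at 0.953 to 0.961 within the plasma cell group and at 0.868 to 0.922 within the naive group over the tested genes, and naive replicate 1 was the lowest. The naive arrays were also narrower, with a 95th percentile of all named genes of 8.92 to 9.15 against 9.32 to 9.44 in plasma cells. The labels were checked on the sort markers. CD138, the gene Sdc1, read 9.12, 8.38, 8.66 and 9.03 on the 4 plasma cell arrays and 4.75, 4.44 and 4.59 on the 3 naive arrays. CD95, the gene Fas, read 8.57, 8.83, 8.57 and 8.82 against 5.02, 6.36 and 3.74, and naive replicate 2 held the highest naive value. Both markers ran as the gates require, which only checks the labels. The marker Ptprc, which encodes CD45 and its B220 form, was lower in plasma cells by a log2 difference of -0.85 (SE 0.14). The switched heavy chains Ighe and Ighg1 were not analysed here.

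Of 12098 tested genes, 4480 (37.0%) passed an adjusted p of 0.05 in limma, with 2779 higher (23.0%) and 1701 lower (14.1%) in plasma cells. A change of at least 2-fold was called for 1792 genes higher (14.8%) and 730 lower (6.03%), and the arrays of the groups did not overlap for 4375 genes (36.2%). The genes were also put in 3 classes by whether they lay above the median of each array. Class "gained" held 215 genes (1.78%) that were called higher, above the median on all 4 plasma cell arrays and on none of the naive arrays. Class "lost" held 113 genes (0.934%) with the opposite pattern, and class "kept" held 4383 genes (36.2%) above the median on all 7 arrays whose 95% interval lay within 1 log2 unit of 0. Without naive replicate 2 the lost class held 215 genes, but the rule then asks for fewer arrays, which by itself can admit more genes. The median is a rank within an array and not a test of whether a transcript is present, since the values carry no detection call.

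**Figure D1:**
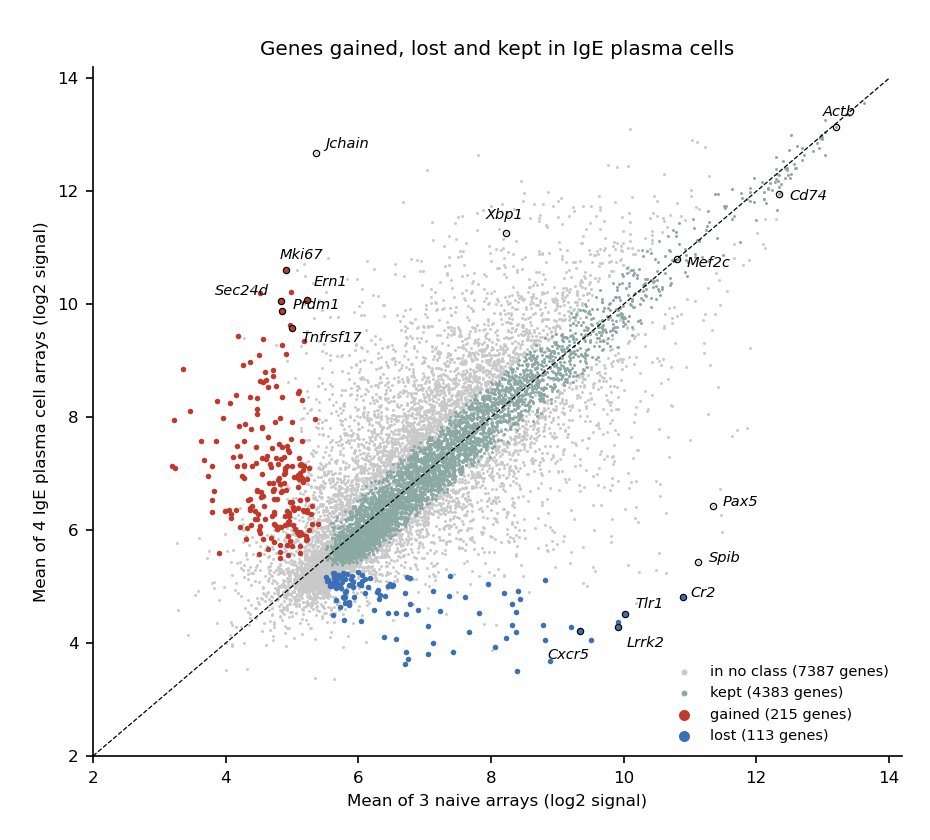
Mean log2 signal of each tested gene over 3 naive arrays (horizontal axis) and 4 IgE plasma cell arrays (vertical axis), coloured by class, with named genes circled and equality as a dashed line. The 215 gained genes lie at the upper left, the 113 lost genes at the lower right and the 4383 kept genes along the line.

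These values depend on the scale in a way that touches each list below. The deposited values came from RMA, and the arrays still differed in spread. The median difference over all tested genes was -0.01. A further quantile normalization gave 4518 called genes, of which 52.6% were higher, against 62.0% on the deposited scale. Each array was also centred on the median level of 20 housekeeping genes, which lowers every difference by 0.99. That shift is larger than the median difference of the same 20 genes, 0.54. It leaves 862 genes higher (7.13%) and 8151 lower (67.4%). Whether a difference between 0.54 and 0.99 turns sign thus depends on how the shift is taken. In bulk RNA, fewer cells of a type and less RNA per cell cannot be told apart, and a change in total RNA per cell is not visible in these values. Directions below are on the deposited scale, and a list whose median changes sign after housekeeping centring is named with it.

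**Figure D2:**
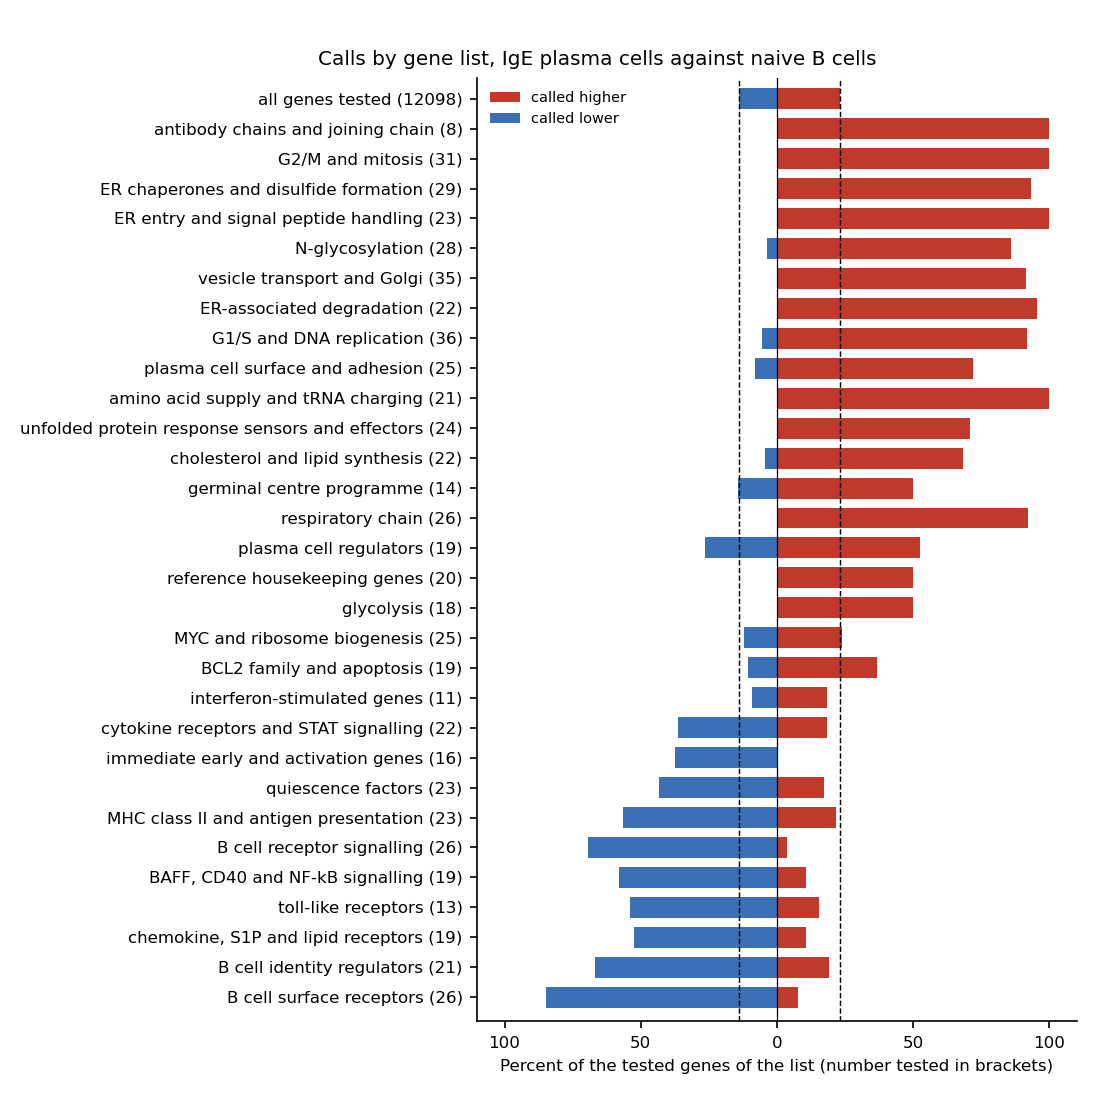
Percent of the tested genes of each list that were called higher (red, to the right) or lower (blue, to the left) in IgE plasma cells, with the number tested in brackets and dashed lines at the shares over all genes tested. Lists are ordered by median difference, below a bar for all genes tested. Secretory and mitotic lists come highest. B cell surface and identity lists lie lowest, followed upward by chemokine receptor, toll-like receptor, BAFF and NF-kB, and B cell receptor lists. Medians of plasma cell regulators, MYC, BCL2 family, glycolysis and housekeeping lists change sign after housekeeping centring.

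Among the regulators of the plasma cell fate, the drivers were high and several B cell factors of the same list had fallen or stayed level. Prdm1, which encodes the repressor BLIMP-1, read 10.01, 9.81, 9.89 and 9.78 on the plasma cell arrays and 4.88, 4.72 and 4.97 on the naive arrays. The groups did not overlap, and the difference was 5.02 (SE 0.29, adjusted p = 8.7e-10), a fold of 32.5. Xbp1, the driver of ER expansion, read 11.43, 11.00, 11.55 and 11.05 against 8.37, 7.65 and 8.65 (difference 3.03, SE 0.24). Irf4, needed for the fate at high dose, read 11.06, 10.78, 10.93 and 10.91 against 7.72, 8.59 and 8.46 (difference 2.66, SE 0.27). Both were thus well above the array median in naive cells already, whereas Prdm1 was below it on all 3 naive arrays and falls in the gained class. Bhlha15, or MIST1, a factor of secretory cell structure that is not in the list counted below, read 10.86, 10.92, 10.87 and 10.63 against 5.91, 5.25 and 5.49 and differed by 5.27 (SE 0.32). Ell2, an elongation factor that favours the secreted form of heavy chain transcripts, rose by 3.42, and its partner Eaf2 by 4.82. Creb3l2, an ER-bound transcription factor, rose by 4.42 and Bhlhe41, a repressor known from B-1 cells, by 3.67, both in the gained class.

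The list of plasma cell regulators had 19 tested genes, of which 10 were called higher and 5 lower, against 23.0% and 14.1% of all genes. Its median of 0.67 turns to -0.33 after housekeeping centring, where 8 stay higher and 6 are lower. The members that fell were Pou2f2, or OCT2 (-1.65), Ikzf3, or AIOLOS (-1.13), Klf13 (-0.82), Ikzf1, or IKAROS (-0.73), and Tbl1xr1 (-0.70). Level across the fate was Mef2c, a factor of B cell activation, with 10.76, 10.78, 10.77 and 10.93 in plasma cells and 10.58, 11.03 and 10.80 in naive cells. Its difference of 0.00 (95% interval -0.30 to 0.31) became -0.40 (adjusted p = 0.0304) after a further quantile normalization. Pou2af1, the OCT coactivator OBF-1 that B cells and plasma cells share, was in the kept class at 0.52 (interval 0.15 to 0.88), which becomes -0.48 after housekeeping centring.

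**Figure D3:**
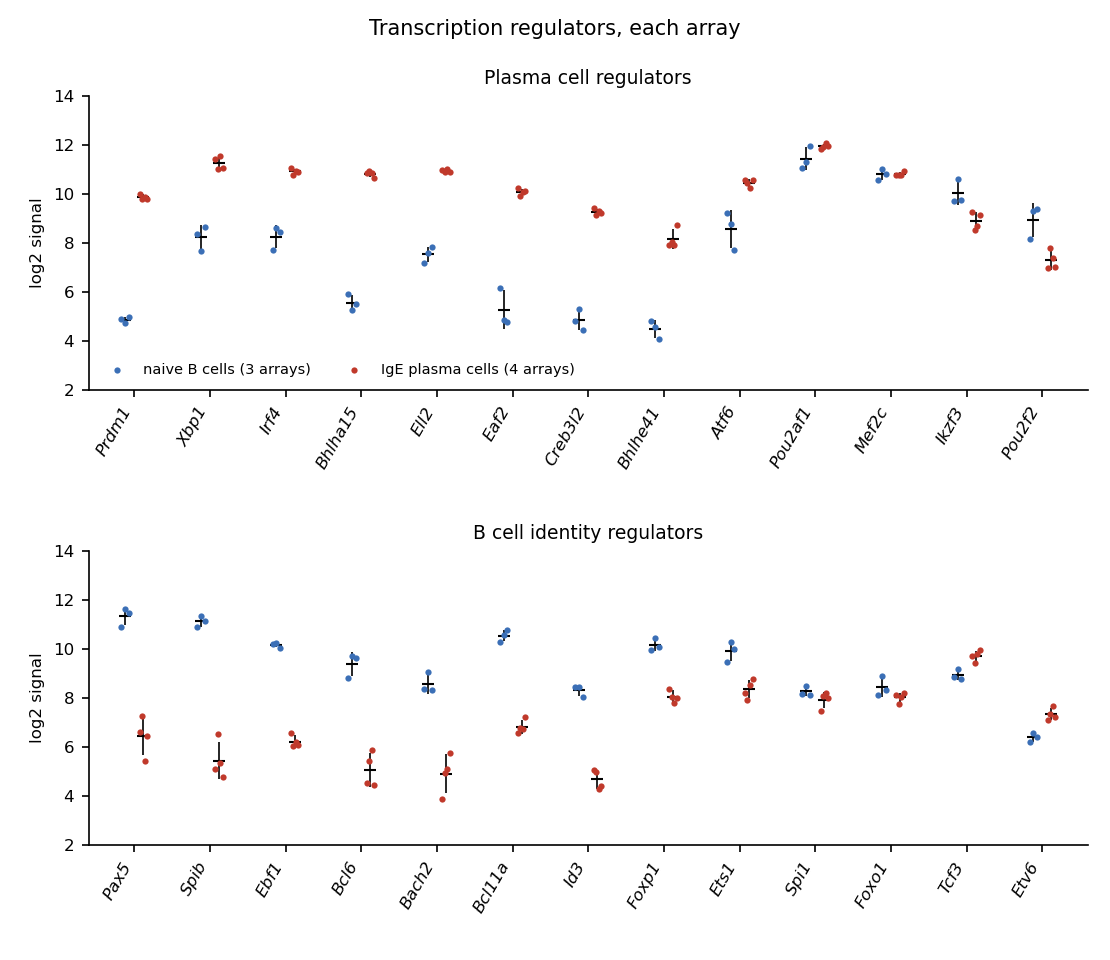
Log2 signal of plasma cell regulators (top) and B cell identity regulators (bottom) on each of 3 naive (blue) and 4 IgE plasma cell arrays (red), with mean and SD in black. Prdm1, Bhlha15 and Creb3l2 lie between 4 and 6 in naive cells and between 9 and 11 in plasma cells, Pax5, Spib and Ebf1 are lower in plasma cells, and Mef2c, Spi1 and Foxo1 overlap.

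The factors that define a B cell fell. Pax5, the commitment factor of the lineage, read 6.62, 7.25, 5.43 and 6.43 in plasma cells and 10.91, 11.65 and 11.48 in naive cells (difference -4.92, SE 0.34, adjusted p = 5.59e-09). Spib, an ETS factor that opposes plasma cell formation, read 5.08, 6.52, 5.34 and 4.79 against 10.90, 11.35 and 11.14 (difference -5.70, SE 0.28). For both genes plasma cell replicate 2 was the highest of its group, and no plasma cell array reached a naive one. Bcl6, a repressor that holds cells in the germinal centre fate, fell from 8.83, 9.73 and 9.62 to 4.53, 5.43, 5.86 and 4.44 (-4.32, SE 0.36). Ebf1, which acts with PAX5, fell by 3.95 on the log2 scale (SE 0.18), and Bach2, which represses Prdm1, by 3.66 (SE 0.32).

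Of 21 tested identity regulators, 14 were called lower and 4 higher, with a median of -1.98. Id3, an inhibitor of E proteins and the only member in the lost class, differed by -3.63, and Bcl11a by -3.72. Smaller decreases were called for Foxp1 (-2.11), Irf8 (-1.98), Ets1 (-1.57) and Klf2 (-1.31). The 4 higher members were Etv6 (0.93), the E proteins Tcf3 (0.76) and Tcf4 (0.65) and Pou2af1, and none of them stayed above 0 after housekeeping centring. Spi1, or PU.1, overlapped between the groups at a difference of -0.34 (interval -0.76 to 0.09), and Foxo1, which B cells need for survival and homing, at -0.42 (interval -0.83 to -0.01). These 2 genes were not called and fall in the kept class on the deposited scale. After a further quantile normalization 17 of the 21 regulators were called lower and 2 higher, and after housekeeping centring 17 and 0. The lack of a call for Spi1 and Foxo1 thus depends on the scale.

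Transcripts of several surface receptors were high in plasma cells and low in naive cells. Tnfrsf17, which encodes the survival receptor BCMA, read 9.48, 9.65, 9.56 and 9.65 against 5.20, 4.58 and 5.20 in naive cells, a difference of 4.59 (SE 0.29, adjusted p = 2.66e-09). Il5ra, the IL-5 receptor chain, read 9.25, 8.82, 8.78 and 9.57 against 4.65, 4.39 and 4.46 (4.61, SE 0.29). Cd28, better known as a T cell costimulator and also carried by long-lived plasma cells, read 9.29, 9.42, 9.65 and 9.08 against 4.94, 5.38 and 5.21 (4.18, SE 0.20). All 3 are in the gained class, and their arrays did not overlap. Cd93, an adhesion receptor tied to plasma cell persistence, rose by 4.72, Cd44 by 2.30 and Slamf7 by 2.08.

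Of 25 tested plasma cell surface genes 18 were called higher and 2 lower, with a median of 1.54. The lower ones were Itgb7 (-1.84), the beta chain of a gut-homing integrin whose alpha chain Itga4 rose by 0.68 (-0.31 after housekeeping centring), and Ly6k (-0.84). Epcam was called higher at 1.84 with a wide spread, at 5.89, 6.53, 7.19 and 4.81. Not called were Cd320, Cd9, Itga6, Lag3 and Il6ra, with differences between -0.24 and 0.13. The list also held the sort marker Sdc1, which only checks the labels.

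Transcripts of antibody chains were higher, although the switched heavy chains were not analysed here. All 8 tested genes of the list were called higher (median 3.46), but 4 of them, Mzb1, Derl3, Pdia4 and Txndc5, are ER proteins and not chains. Jchain, the joining chain of secreted polymeric antibody, showed the largest difference of the comparison. It read 12.72, 12.64, 12.68 and 12.67 in plasma cells and 7.13, 4.77 and 4.18 in naive cells (7.32, SE 0.44, adjusted p = 1.37e-09). Naive replicate 1 stood above the other naive arrays, at a level still far below the plasma cells. Ighm, the mu constant region, read 13.13, 12.97, 12.19 and 13.22 against 11.18, 11.03 and 11.11 (1.77, SE 0.23), and Igha, the alpha constant region, 12.08, 11.71, 11.05 and 12.07 against 10.16, 9.75 and 9.03 (2.08, SE 0.32). Ighg3 differed by 3.20 with a wide error (SE 0.70). Heavy chain constant regions resemble each other, so the isotype that each of these probe sets reads is uncertain. Mzb1, an ER cofactor of antibody assembly, rose by 3.00 (SE 0.18).

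All 3 sensors of the unfolded protein response were higher. Ern1, which encodes the sensor IRE1 that splices the Xbp1 message, read 10.57, 9.90, 9.70 and 10.13 against 5.21, 5.15 and 5.31 (4.85, SE 0.32, adjusted p = 3.63e-09) and is in the gained class. Atf6 rose by 1.88 (SE 0.27) and Eif2ak3, which encodes PERK, by 1.66 (SE 0.26). Downstream of PERK, Atf4 rose by 1.21 and Ddit3, or CHOP, by 0.65 (-0.34 after housekeeping centring). Trib3, a CHOP target, read 5.61, 5.54, 5.77 and 5.69 against 5.81, 5.49 and 5.72, and Ppp1r15a, or GADD34, 7.48, 7.10, 7.05 and 6.76 against 7.34, 6.87 and 6.76. These 2 genes overlapped between groups and differed by -0.02 (interval -0.38 to 0.34) and 0.11 (interval -0.39 to 0.61). Chac1, another target of the ATF4 and CHOP branch, was higher by 1.83 (SE 0.30). Of 24 tested sensors and effectors, 17 were called higher and 0 lower, with a median of 1.44.

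Promoters of the genes that the response is known to act on were read for its response elements, because the members that rose and those that did not can be set beside their sequence. The ER stress response element (ERSE) is spelled CCAAT, 9 bases of any kind and CCACG, and was searched on both strands from 250 bases before to 50 after each RefSeq gene start (GRCm38.p6). The stretches below carry the element in capitals with 5 flanking bases, read on the strand named.
Hspa5 (chr2:34772020-34772048, plus strand): cttcaCCAATCGGAGGCCTCCACGacggg
Derl3 (chr10:75893237-75893265, minus strand): gctagCCAATGGGGAAGTCCCACGgtaga
Dnajc3 (chr14:118937822-118937850, plus strand): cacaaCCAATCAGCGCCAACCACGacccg
Pdia6 (chr12:17266486-17266514, plus strand): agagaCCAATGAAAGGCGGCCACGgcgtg
Calr (chr8:84847070-84847098, plus strand): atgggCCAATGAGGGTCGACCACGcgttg
Creld2 (chr15:88819515-88819543, minus strand): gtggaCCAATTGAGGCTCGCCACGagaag
Ero1b (chr13:12565677-12565705, minus strand): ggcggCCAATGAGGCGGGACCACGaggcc
These lie 65, 156, 105, 98, 162, 126 and 201 bases before their gene starts. The element was found in 39 of 32851 windows (0.119%) and in 16 of 9623 tested genes with a window (0.166%). Among genes called higher it was in 9 of 2272 (0.396%), among genes called lower in 0 of 1305, and among genes not called in 7 of 6046 (0.116%). The 9 were Calr, Canx, Creld2, Derl3, Dnajc3, Hsp90b1 with 2 copies, Hspa5, Pdia6 and Syvn1. A match is a description of the letters and not evidence of a bound factor.

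Genes that hold the element differed in what they did. Hspa5, the chaperone BiP and the classical target, read 12.43, 12.41, 12.49 and 12.50 against 9.75, 10.32 and 10.11 (2.40, SE 0.15). Creld2, an ER protein of disulfide handling, read 11.57, 11.49, 11.64 and 11.53 against 8.15, 7.41 and 7.11 (4.00, SE 0.33). Its neighbour Alg12, a mannosyltransferase, starts on the other strand and holds the same copy of the element 220 bases before its own start. Alg12 read 7.93, 8.52, 7.64 and 8.43 against 6.82, 6.88 and 8.47, overlapping, and was not called (0.74, SE 0.37, adjusted p = 0.132). Ero1b, an oxidase that feeds disulfides to the ER, was level at 10.36, 9.88, 10.14 and 10.17 against 10.09, 9.87 and 9.68 (0.26, interval -0.20 to 0.71). Its relative Ero1a, in whose window no such letters were found, rose from 5.89, 7.30 and 7.02 to 9.34, 9.56, 9.88 and 9.55 (2.85, SE 0.26).

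A second element, ERSE-II (ATTGG, any base and CCACG), was in 12 windows (0.0365%) and in 5 of 2272 genes called higher (0.22%), against 0 of 1305 called lower and 4 of 6046 not called (0.0662%). It is shown for the ER membrane degradation factor Herpud1 and the chaperone partner Dnajb11, which both rose by 2.81 on the log2 scale.
Herpud1 (chr8:94386372-94386392, plus strand): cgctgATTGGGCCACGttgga
Dnajb11 (chr16:22857847-22857867, plus strand): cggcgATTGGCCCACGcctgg
The third, the unfolded protein response element (UPRE) TGACGTGG, is shorter and was in 222 windows (0.676%). It was in 44 of 2272 genes called higher (1.94%), 4 of 1305 called lower (0.307%) and 60 of 6046 not called (0.992%). Read on the other strand it begins with the CCACG that ends the ERSE, so the searches can share bases. Of 31 vesicle transport genes with a window, 6 held it, and it is shown for the coat protein Sec24d and the disulfide isomerases Txndc5 and Txndc11, which rose by 5.23, 5.34 and 3.46.
Sec24d (chr3:123267465-123267482, plus strand): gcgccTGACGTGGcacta
Txndc5 (chr13:38528040-38528057, minus strand): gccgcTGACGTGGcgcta
Txndc11 (chr16:11134622-11134639, minus strand): gtggcTGACGTGGagagt
Kdelr3, a retrieval receptor that also holds the letters, was not called (0.61, adjusted p = 0.0599).

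Nearly the whole secretory line rose, from entry into the ER to the Golgi. All 23 tested genes of ER entry and signal peptide handling were called higher (median 2.40), from 1.31 for the signal recognition particle protein Srp14 to 3.75 for the translocon-associated protein Ssr2. Sec61a1, the pore of the translocon, read 11.52, 11.61, 11.56 and 11.65 against 7.91, 9.25 and 9.07 (2.84, SE 0.27). After housekeeping centring 20 of the 23 were still called higher and 0 lower.

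Folding came next in the line. Of 29 tested chaperone and disulfide genes, 27 were higher (median 2.87), and the 2 not called were Ero1b and Qsox1 (0.60, adjusted p = 0.212). Txndc5 read 12.48, 12.25, 12.30 and 12.49 against 7.07, 7.71 and 6.33 (5.34, SE 0.27). Prdx4, a peroxidase that makes disulfides from hydrogen peroxide, read 10.52, 10.52, 10.44 and 10.54 against 5.80, 4.66 and 5.13 (5.31, SE 0.23). Fkbp11, a prolyl isomerase of secretory tissues, rose by 4.66 and the large chaperone Hyou1 by 3.74 (SE 0.15). The general chaperones Hsp90b1, or GRP94, and Canx, a lectin, rose by 1.87 and 1.18.

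Sugar addition followed the same direction, with 24 of 28 N-glycosylation genes higher and 1 lower (median 2.28). Magt1, an oxidoreductase subunit of the oligosaccharyltransferase, read 10.67, 10.58, 10.64 and 10.47 against 6.15, 7.86 and 6.93 (3.61, SE 0.30). Its paralog Tusc3, which fills the same place in the complex, was the member that fell, at 6.76, 6.80, 6.85 and 6.16 against 8.02, 6.91 and 7.82 (-0.94, SE 0.29, adjusted p = 0.0171). Dpagt1, the enzyme of the first step, rose by 3.43, whereas Alg1, which adds the first mannose, was level at -0.13 (interval -0.75 to 0.48).

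The disposal route for misfolded protein rose for 21 of 22 genes (median 2.08). Derl3, a channel component made mainly by secretory cells, read 11.88, 11.80, 11.57 and 11.96 against 6.17, 7.24 and 6.60 (5.13, SE 0.30). Edem1, which extracts mannose-trimmed clients, rose by 4.04, and Sel1l, the scaffold of the ligase complex, by 3.33. The ligase Syvn1, or HRD1, rose by 1.12, and Ube2j2 was the member not called (0.50, adjusted p = 0.161).

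Of 35 vesicle and Golgi genes, 32 were higher (median 2.20). Sec24d, a cargo-binding subunit of the COPII coat, read 10.33, 10.02, 9.86 and 10.05 against 4.89, 5.06 and 4.56 (5.23, SE 0.29) and is in the gained class. Its relatives Sec24a and Sec24c rose by 3.39 and 1.00. Lman1, the cargo receptor ERGIC-53, read 10.84, 10.82, 10.76 and 10.68 against 7.30, 5.10 and 6.01 (4.64, SE 0.34), and its partner Mcfd2 was not called (0.66, adjusted p = 0.0804). Trappc1, of a tethering complex, was level at -0.01 and one plasma cell array, replicate 3, read 10.59 against 8.46 to 8.99 on the others.

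The supply of building blocks also rose. All 21 tested genes of amino acid supply and tRNA charging were called higher, with a median of 1.52, and 10 of them after housekeeping centring. Asns, asparagine synthetase, read 8.58, 8.77, 8.93 and 8.64 against 4.95, 4.43 and 4.74 (4.02, SE 0.33) and is in the gained class. The subunits of the large neutral amino acid transporter rose by 2.90 (Slc7a5) and 2.44 (Slc3a2), and Psat1, of serine synthesis, by 2.69. Windows of Asns and Chac1 held the letters TGATGNAAC of an element of the amino acid response, which were in 265 windows (0.807%), in 22 of 2272 genes called higher (0.968%), in 11 of 1305 called lower (0.843%) and in 33 of 6046 not called (0.546%). The variant TGATGNAAT was in 317 windows (0.965%), in 11 genes called higher (0.484%), in 5 called lower (0.383%) and in 31 not called (0.513%).
Asns (chr6:7693219-7693237, minus strand): ccacaTGATGAAACttccc
Chac1 (chr2:119351043-119351061, minus strand): aggagTGATGCAACggcag
The capitals mark the element.

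Energy and lipid genes were higher for the most part. In the respiratory chain 24 of 26 genes were called higher with a median of 1.05, which is the size of the housekeeping shift and leaves 4 higher and 3 lower after that centring. Cycs, cytochrome c, rose by 2.25 and Ndufa4 by 1.69. Glycolysis had 9 of 18 genes higher, led by Pgk1 (1.65) and Tpi1 (1.59), and a median of 0.53 that turns to -0.47 with housekeeping centring. Cholesterol and lipid synthesis had 15 of 22 genes higher and 1 lower (median 1.18). Nsdhl, a sterol enzyme, rose by 2.70 and Idi1 by 2.38. The member that fell was Scd1, a fatty acid desaturase, at 6.37, 7.27, 7.49 and 5.81 against 11.20, 11.72 and 11.44 (-4.72, SE 0.39), while its paralog Scd2 rose by 1.98.

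Receptors of the mature B cell surface were lower in 22 of 26 cases and higher in 2 (median -2.19). Cr2, the complement receptor CD21, read 5.05, 4.70, 4.69 and 4.80 in plasma cells and 10.58, 11.13 and 10.98 in naive cells, the largest decrease of the comparison (-6.08, SE 0.21, adjusted p = 7.93e-12). Cd22, a sialic acid receptor that damps antigen signals, read 6.14, 7.50, 5.97 and 5.44 against 11.29, 11.72 and 11.40 (-5.21, SE 0.34). Cd72, another inhibitory receptor, read 5.15, 4.45, 5.87 and 5.69 against 9.95, 10.55 and 10.96 (-5.20, SE 0.31). None of these arrays overlapped between groups, and Cr2 is in the lost class. Ms4a1, which encodes CD20, and the costimulatory receptor Cd40 differed by -2.08 and -2.30.

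Fcer2a, the low-affinity IgE receptor CD23, was also lower. It read 8.83, 8.85, 9.31 and 9.91 in IgE plasma cells against 11.96, 12.02 and 11.74 in naive cells (-2.68, SE 0.32). On the 2 IgG1 plasma cell arrays it read 5.84 and 7.51, so that IgE exceeded IgG1 plasma cells by 2.55 (SE 0.36, adjusted p = 0.00161). Tetraspanin Cd53 was level at 0.09 (interval -0.27 to 0.45), and Cd24a, the heat-stable antigen, rose by 1.47 (SE 0.17).

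The B cell receptor pathway was lower in most of its members. Of 26 tested genes 18 were lower and 1 higher, with a median of -0.80. The signalling chains of the receptor were lower, with Cd79a at 10.97, 11.05, 11.02 and 11.20 against 11.93, 12.40 and 11.99 (-1.04, SE 0.15) and Cd79b at 11.78, 11.24, 11.66 and 11.38 against 12.16, 12.34 and 12.40 (-0.78, SE 0.16). Further down, the scaffold Bank1 read 6.23, 5.65, 6.80 and 5.18 against 11.37, 11.67 and 11.40 (-5.52, SE 0.32). The kinases Blk (-2.92), Prkcb (-2.63) and Syk (-2.01) and the phosphatases Ptpn22 (-3.11) and Ptpn6, or SHP-1 (SE 0.22, adjusted p = 2e-06), were lower. The adaptor Blnk read 10.13, 10.25, 10.02 and 9.43 against 10.15, 10.04 and 10.27. It overlapped between the groups with an interval of -0.58 to 0.18, as did the lipase Plcg2 (interval -0.17 to 0.48). The kinase Fyn, better known from T cells, was the only member called higher (1.06, SE 0.24).

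Antigen presentation on MHC class II split between the regulator and the molecules. Ciita, the master activator of class II genes, read 5.52, 6.42, 5.18 and 5.26 against 10.28, 10.71 and 10.62 (-4.94, SE 0.24, adjusted p = 1.49e-10). H2-Oa and H2-Ob, which encode the modulator of peptide loading, differed by -4.33 (SE 0.28) and -3.41 (SE 0.20). The molecules themselves had differences nearer to 0. Cd74, the invariant chain, read 12.02, 11.96, 11.87 and 11.94 against 12.24, 12.42 and 12.37 (-0.39, SE 0.12), and H2-Aa read 11.11, 11.34, 10.98 and 10.99 against 11.69, 11.81 and 11.78 (-0.66, SE 0.16). Their arrays did not overlap and both were called lower, yet both are in the kept class, since their intervals of -0.64 to -0.14 and -0.99 to -0.33 lie within 1 log2 unit. H2-Ea and H2-Eb1 fell by 1.11 and 1.01, and H2-Ab1 was not called (-0.46, adjusted p = 0.27).

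Other members of the presentation list completed that split. The regulator Rfx5 differed by -1.53, the ubiquitin ligase Marchf1 by -2.53 and the costimulator Cd86 by -2.12, while Cd80 rose by 1.11 and the protease Lgmn by 1.05. On the class I side B2m, the light chain, was level at 0.10 (interval -0.25 to 0.45), as was the peptide transporter Tap1 at -0.05 (interval -0.49 to 0.39). In all 13 of 23 were lower, 5 higher and 7 in the kept class, against 14.1%, 23.0% and 36.2% of all genes.

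**Figure D4:**
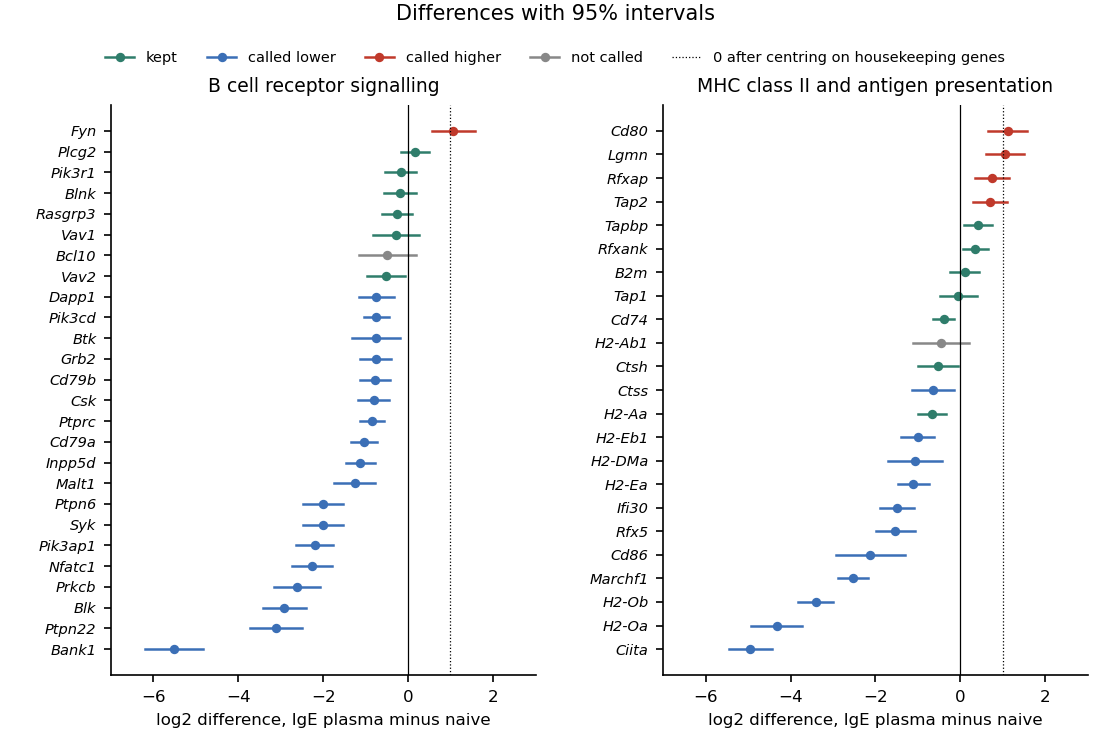
Log2 difference of IgE plasma cells from naive B cells with its 95% interval for each tested gene of the B cell receptor list (left) and the MHC class II and antigen presentation list (right). Kept genes are green, also where they were called, and the dotted line at 0.99 marks where 0 lies after housekeeping centring. Cd79a, Cd79b, Cd74 and H2-Aa lie between -1.04 and -0.39, Bank1 at -5.52 and Ciita at -4.94.

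Receptors that place B cells in the follicle fell below the array median, while Ccr10 rose. Cxcr5, which draws cells to the follicle, read 4.60, 4.65, 3.41 and 4.19 against 9.14, 9.57 and 9.32 (-5.13, SE 0.28). Cnr2, the cannabinoid receptor that holds B cells in place, read 4.71, 3.90, 4.38 and 4.15 against 9.21, 9.54 and 8.89 (-4.93, SE 0.39). Ccr6 fell from 8.14, 9.36 and 7.71 to 5.07, 5.12, 4.71 and 4.79 (-3.48, SE 0.32). These 3 are in the lost class. Ccr7, of the T zone, fell by 1.95 (SE 0.36), Gpr183, or EBI2, by 1.69 and the egress receptor S1pr1 by 2.25.

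Against the germinal centre, that order differed. Ccr7, Gpr183, Ccr6 and S1pr1 differed between IgE plasma cells and IgE germinal centre cells by -0.06, 0.08, -0.32 and 0.60, none of them called, whereas Cxcr5 was lower by 4.61 (SE 0.28). Cxcr4, which guides plasma cells to bone marrow niches, was lower than in naive cells, at 9.55, 10.45, 9.81 and 10.12 against 11.43, 11.43 and 11.49 (-1.47, SE 0.19). Ccr10, a receptor of mucosal plasma cells, rose from 5.55, 5.46 and 6.01 to 8.20, 8.24, 8.72 and 7.94 (2.60, SE 0.19). The S1P receptor S1pr4 was level at -0.17 (interval -0.68 to 0.34). Of 19 tested receptors and regulators 10 were lower and 2 higher (median -1.47).

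The receptors for the survival factors BAFF and APRIL moved in opposite directions. Tnfrsf13c, the BAFF receptor of resting B cells, read 10.39, 10.24, 10.18 and 10.15 against 11.84, 11.33 and 11.51 (-1.32, SE 0.14). BCMA rose as described, and Tnfrsf13b, or TACI, by 0.87 (SE 0.19), a value that becomes -0.12 after housekeeping centring. Of the NF-kB subunits Rel fell from 9.75, 10.48 and 10.32 to 6.36, 6.61, 5.89 and 6.78 (-3.77, SE 0.21). Rela, in contrast, was level at -0.29 (interval -0.69 to 0.11), and so was the inhibitor Nfkbia at 0.10 (interval -0.72 to 0.92). The adaptor Traf5 differed by -3.24 (SE 0.33). The list had 11 of 19 genes lower and 2 higher (median -0.96).

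Pattern recognition fell for 7 of 13 genes and rose for 2, against 14.1% and 23.0% of all genes. Tlr1 read 4.05, 4.43, 4.80 and 4.79 against 9.84, 10.47 and 9.76 (-5.51, SE 0.31) and is in the lost class. The DNA sensor Tlr9 differed by -3.29, and the LPS-sensing pair of B cells Cd180 and Ly86 by -3.97 and -3.01. Tlr4 overlapped between the groups (0.34, interval -0.28 to 0.96), and the adaptor Myd88 was called higher by 0.78 (adjusted p = 0.0429; -0.21 after housekeeping centring).

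Cytokine receptors moved in both directions. Il4ra, the receptor chain for IL-4 and IL-13, read 7.01, 7.25, 6.43 and 7.33 against 9.37, 10.59 and 10.24 (-3.06, SE 0.26). Il21r and Il10ra differed by -2.53 (SE 0.34) and -3.08 (SE 0.28), the kinase Jak1 by -1.97 and the IL-4 signal carrier Stat6 by -1.74. Il13ra1, which pairs with IL4RA, rose from 4.79, 4.02 and 4.30 to 6.75, 6.37, 5.84 and 6.62 (2.02, SE 0.27). Il6st, or gp130, rose by 1.54, and Stat3 downstream of it was level (-0.36, interval -0.80 to 0.09). Socs2, a feedback inhibitor of cytokine signalling, read 8.90, 9.49, 9.31 and 8.02 against 4.19, 3.98 and 4.64 (4.66, SE 0.35). Of 22 tested genes 8 were lower, 4 higher and 7 in the kept class, against 14.1%, 23.0% and 36.2% of all genes.

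These plasma cells carried the transcripts of dividing cells. Mki67, a marker of cycling cells, read 10.53, 10.61, 10.62 and 10.65 against 4.87, 4.89 and 4.97 in naive cells (5.69, SE 0.12, adjusted p = 4.07e-15). Rrm2, the ribonucleotide reductase subunit of S phase, read 9.91, 10.39, 10.54 and 9.92 against 4.95, 4.39 and 4.22 (5.67, SE 0.23). Top2a read 9.48, 9.69, 9.95 and 9.44 against 5.36, 5.32 and 4.25 (4.67, SE 0.24). All 3 lie in the gained class and no plasma cell array approached a naive one. All 31 tested G2/M genes were called higher (median 2.96), and 33 of 36 G1/S genes were higher (median 1.73).

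The G1/S genes that did not rise were Cdt1, a licensing factor (0.76, adjusted p = 0.0615), Tk1 and Pold1. Pold1, the catalytic subunit of DNA polymerase delta, read 7.01, 6.96, 6.75 and 7.03 against 8.34, 8.47 and 7.54 (-1.18, SE 0.25). Tk1, thymidine kinase, was lower by 0.73 in its brightest probe set, but with the mean of its probe sets the difference was 0.17, so its direction is uncertain. The promoters of 18 of 25 G2/M genes with a window held TTTGAA, the letters of the cell cycle homology region, which were in 17.9% of all windows and in 14.1% of tested genes with a window (14.9% of those called higher, 14.4% of those called lower and 13.8% of those not called).

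Many replication and mitosis genes stood lower than in IgE germinal centre cells. In this comparison 2860 of 12098 genes were called (23.6%), 1235 higher (10.2%) and 1625 lower (13.4%) in plasma cells. Of the G1/S genes 18 and of the G2/M genes 21 were below the germinal centre, with medians of -0.68 and -0.74, and none was above it. Mcm6, of the replicative helicase, was at 8.39 ± 0.45 in plasma cells, 9.78 ± 0.02 in germinal centre cells and 5.87 ± 0.37 in naive cells (SD, n = 4, n = 3 and n = 3). Mki67 was lower by 0.37 than in the germinal centre (SE 0.12), and Rrm2 was not called (0.04, SE 0.23).

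Of 23 tested factors of quiescence 10 were called lower and 4 higher, against 14.1% and 23.0% of all genes. Btg1, an antiproliferative gene high in resting lymphocytes, read 7.80, 8.35, 7.57 and 7.55 against 11.89, 11.91 and 11.80 (-4.05, SE 0.18). Slfn2 differed by -2.72 and Klf3 by -2.24. Cdkn1b, the inhibitor p27, was level with naive cells at 8.33, 8.60, 8.18 and 8.46 against 8.07, 8.52 and 8.52 (interval -0.42 to 0.46), and exceeded the germinal centre by 2.21 (SE 0.21). Cdkn2c, the inhibitor p18 that plasma cells need to stop dividing, rose over naive cells by 2.63 (SE 0.32) and was not called against the germinal centre (-0.56, SE 0.32).

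**Figure D5:**
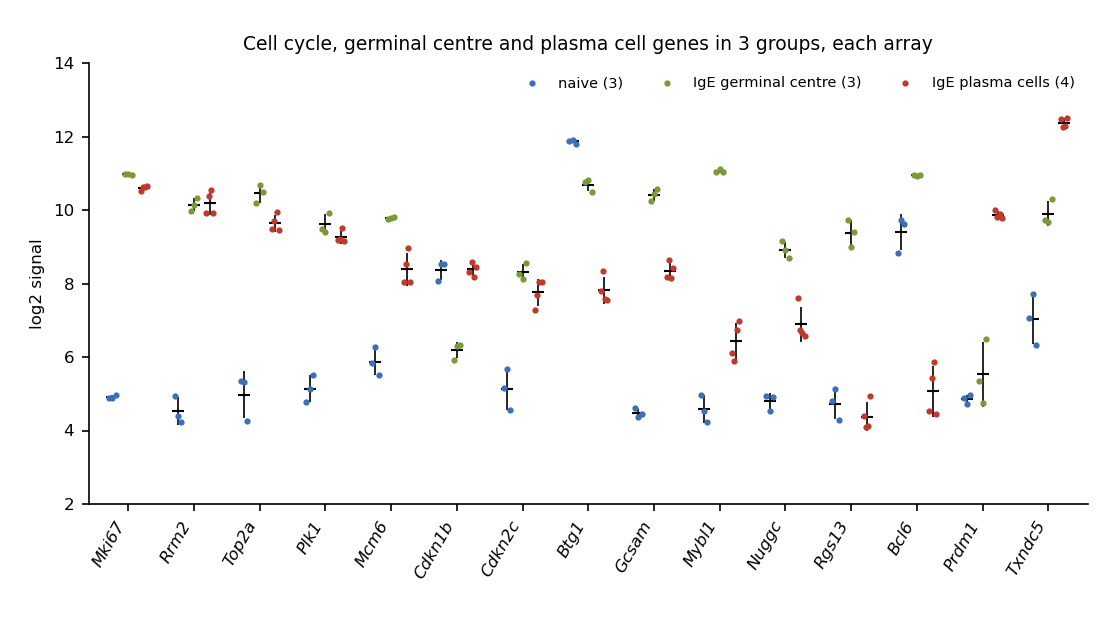
Log2 signal on each of 3 naive (blue), 3 IgE germinal centre (green) and 4 IgE plasma cell arrays (red), with mean and SD in black, for cell cycle, germinal centre and plasma cell genes. Mki67 and Rrm2 lie near 10 to 11 in germinal centre and plasma cells and below 5 in naive cells, Gcsam and Mybl1 lie between the other groups in plasma cells, and Bcl6 is lowest in plasma cells.

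Germinal centre genes were partly present. Of 14 tested genes of that programme 7 were above naive cells and 2 below, while 11 were below the IgE germinal centre (median -2.04). Gcsam, a signalling adaptor of germinal centre cells, read 8.18, 8.64, 8.15 and 8.43 in plasma cells, 10.24, 10.43 and 10.57 in the germinal centre and 4.60, 4.38 and 4.45 in naive cells. Mybl1, a transcription factor of the germinal centre, read 6.10, 5.89, 6.73 and 6.97, 11.03, 11.13 and 11.02 and 4.98, 4.52 and 4.23 in the same order. Both thus lay between the other groups. Rgs13 was at the naive level (-0.35, interval -1.04 to 0.33) and lower than in the germinal centre by 4.99, and S1pr2, which confines cells to the follicle centre, was level with naive cells (0.04, interval -0.39 to 0.47) and lower than in the germinal centre by 1.78.

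Myc, the driver of the growth programme, was lower than in naive cells, at 8.66, 8.60, 9.22 and 8.32 against 9.26, 9.95 and 10.18 (-1.10, SE 0.30, adjusted p = 0.00857). The list of MYC and ribosome biogenesis genes had 6 of 25 genes higher and 3 lower, shares of the order of all tested genes, with a median of 0.35 that turns to -0.65 after housekeeping centring. Cad, of pyrimidine synthesis, rose by 1.72 and the nucleolar Nolc1 by 1.31, while Npm1 (-0.11, interval -0.50 to 0.27) and Ncl (0.39, interval 0.06 to 0.72) are in the kept class.

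In the BCL2 family the guardians and their opponents shifted. Bcl2, the survival factor of resting B cells, read 5.85, 6.80, 6.96 and 8.50 against 8.76, 9.54 and 8.74 (-1.99, SE 0.42), and plasma cell replicate 4 lay close to the naive arrays. Bcl2l11, the death inducer BIM, read 10.47, 9.59, 9.73 and 9.79 against 6.77, 7.76 and 6.97 (2.73, SE 0.28). Mcl1, which plasma cells depend on, was level at 10.47, 10.29, 10.50 and 10.56 against 10.28, 10.56 and 10.22 (interval -0.21 to 0.41). Bid rose by 1.39 and Bcl2l1, or BCL-XL, by 0.67 (-0.32 after housekeeping centring). Over the list 7 of 19 were higher and 2 lower, against 23.0% and 14.1% of all genes. Its median of 0.10 turns to -0.01 after further quantile normalization and -0.89 after housekeeping centring.

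Activation genes included calls in the lower direction only. Of 16 immediate early and activation genes 6 were lower and 0 higher, against 14.1% and 23.0% of all genes. Cd83 read 7.46, 8.46, 7.83 and 7.36 against 11.44, 11.73 and 11.94 (-3.93, SE 0.22), and Dusp2 fell by 1.75. Jun varied within the plasma cells, at 9.03, 7.29, 7.68 and 7.38, and was not called (adjusted p = 0.135). Of 11 interferon-stimulated genes, 2 were higher (Bst2 at 1.41 and Ly6e at 0.49, the latter -0.51 after housekeeping centring) and 1 lower (Irf9 at -0.79). Both counts are of the order of the 23.0% and 14.1% of all genes.

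The housekeeping list itself was uneven. Actb read 13.12, 13.11, 13.23 and 13.09 against 13.10, 13.19 and 13.34, and Eef1a1 and Ppia differed by -0.02 and 0.08. All 3 overlapped between the groups on the deposited scale, and Ppia and Actb stand at -0.91 and -1.07 after the list is centred. Reep5 and Emc7, which act at the ER membrane, rose by 2.92 and 2.74. Of the 20 genes 10 were called higher and 0 lower (median 0.54, and -0.46 after centring). The centring used the median of their levels on each array, which shifted by 0.99, and not the median of their differences. The list includes Reep5 and Emc7, genes of the organelle that the comparison is about, and their part in the shift was not tested.

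Outside the lists, the largest rises and decreases named further genes. Pon3, a paraoxonase, read 11.10, 10.64, 10.34 and 10.38 against 5.04, 5.58 and 4.62 (5.54, SE 0.25), and Tent5c, a poly(A) polymerase that stabilizes immunoglobulin messages, 10.66, 10.85, 10.98 and 10.40 against 4.97, 5.06 and 5.54 (5.53, SE 0.27). Rbm47, an RNA-binding protein, rose by 5.26 and Hid1, of secretory granule formation, by 5.06. Histone gene H2ac4 (5.13) and the variable segment Trav14-1 (5.51) belong to families of near-identical copies, so their identity is uncertain. Trav14-1, a T cell receptor segment by name, read 10.43, 9.79, 7.88 and 7.35 in plasma cells and 3.80, 3.20 and 3.06 in naive cells, and T cell markers are given below.

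Decreases outside the lists included Lrrk2, a kinase with a role in Parkinson's disease, at 4.46, 4.19, 4.26 and 4.21 against 9.85, 9.93 and 9.98 (-5.64, SE 0.19). Ms4a4c and Ms4a6c, relatives of CD20, differed by -5.54 and -5.21, the glycosyltransferase B3gnt5 by -5.46 and Zfp318, which governs IgD expression, by -5.39. Plac8 (-4.77) and Notch2, the receptor of marginal zone fate (-3.69), are in the lost class with Lrrk2, Ms4a4c, Ms4a6c and B3gnt5. Samd9l, an interferon-inducible gene, differed by -5.47 with a wide error (SE 0.83), and replicate 2 of the plasma cells read 8.33 against 3.17 to 4.03 on the other 3.

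Markers of other cell types were checked beside these results, since a gate can admit other cells. The naive gate selects B220, which plasmacytoid dendritic cells also carry. Of 6 such markers, 4 lay above the median on all naive arrays and 3 on all plasma cell arrays, and the mean over the markers was 5.80 to 6.51 in naive and 5.61 to 5.69 in plasma cells. Siglech, the defining marker, is in the lost class. It read 4.97, 5.01, 4.78 and 4.81 in plasma cells and 6.11, 7.81 and 6.19 in naive cells (-1.81, SE 0.29). Cox6a2 was lower too (-0.50), whereas Pacsin1 was higher in plasma cells, at 8.26, 7.80, 7.95 and 8.15 against 6.58, 7.44 and 7.06 (1.01, SE 0.23). Tyrobp, an adaptor of myeloid cells and natural killer cells, read 5.81, 6.38, 5.61 and 6.21 against 8.24, 8.75 and 8.30 (-2.43, SE 0.22). The 15 markers of macrophages and conventional dendritic cells had means of 4.84 to 5.08 in plasma cells and 4.96 to 5.20 in naive cells, with Csf1r, Adgre1, Itgam and Clec9a below the filter for testing. The part of such cells in the decreases of Tlr1, Ms4a4c or Ms4a6c was not tested.

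T cell markers averaged 4.82 to 5.03 over 14 markers in plasma cells and 5.65 to 5.98 in naive cells. Of 10 tested 6 were lower in plasma cells and 0 higher, against 14.1% and 23.0% of all genes. Cd3e was not called (-0.45, adjusted p = 0.301), Lat differed by -1.50 and Cd3d by -1.01, whereas Cd2, which B cells of the mouse also express, differed by -4.02. Cd5 read 5.14 to 5.22 in plasma cells and 5.70 to 6.22 in naive cells, and Cd8a 5.04 to 5.31 and 5.97 to 6.12. Both are in the lost class, which thus includes markers of other cell types. Natural killer markers averaged 3.86 to 4.00 and 4.17 to 4.61, and basophil and mast cell markers 4.01 to 4.35 and 4.04 to 4.56, in plasma cells and naive cells. Naive replicate 2 read highest of the naive arrays for Klrd1, at 6.18 against 3.94 and 4.32. It was also highest for the natural killer markers Klrk1, Nkg7, Gzma, Eomes, Klrb1c and Klra8. Prf1, Ncr1 and Gzmb were lowest on that array. Among T cell markers it was highest for Il7r (6.61 against 4.02 and 5.08), Cd3e, Cd3d, Cd3g, Cd4, Cd8a, Lat and Cd2. It was not highest for Cd5, Cd247, Zap70, Trat1, Bcl11b and Icos. Neutrophil and eosinophil markers averaged 4.54 to 4.97 and 4.57 to 5.03. Among them Prg2, the major basic protein of eosinophils, was higher in plasma cells at 6.02, 6.07, 7.15 and 8.14 against 4.51, 4.52 and 4.91 (2.20, SE 0.36), while Epx and Csf3r lay below the filter. S100a9, a calcium-binding protein of neutrophils, was the member called lower (-1.01, SE 0.35), at 4.49, 4.60, 4.30 and 4.93 in plasma cells and 4.52, 6.03 and 6.24 in naive cells. Its partner S100a8, below the filter, read 3.30 to 3.92 in plasma cells and 4.02, 5.14 and 6.46 in naive replicates 1, 2 and 3. Both were high on naive replicates 2 and 3 and near the plasma cells on naive replicate 1. Erythroid and platelet markers averaged 4.57 to 4.88 and 4.65 to 4.92, and the median difference of 3 tested was 0.08, which turns to -0.92 after housekeeping centring. Averages were 5.13 to 5.34 and 5.65 to 5.95 for stromal and endothelial markers. The stromal list held Pecam1, or CD31, which B cells also express and which differed by -3.55, and the macrophage list held Cd68, a lysosomal protein, which rose by 2.60. Of the tested markers, 0 of 2 natural killer, 0 of 2 basophil, 1 of 7 macrophage, 1 of 4 plasmacytoid, 1 of 5 neutrophil, 0 of 3 erythroid and 1 of 6 stromal markers were called higher, and 1, 1, 1, 2, 1, 0 and 2 lower. With so few markers tested, these counts say little beside the shares over all genes, 23.0% higher and 14.1% lower. What these markers contribute to the calls was not tested.

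Whether the changes belonged to plasma cells in general was read from the 2 IgG1 plasma cell arrays, in a comparison that shares the IgE plasma cell arrays with the one above. IgE and IgG1 plasma cells differed in 116 genes (0.959%), 95 higher (0.785%) and 21 lower (0.174%) in IgE. With only those 6 arrays in the fit limma called 0 genes, with 1410 at an unadjusted p under 0.05, so the count rests on the spread of the other groups. It became 253 without IgG1 replicate 1 and 76 without IgE replicate 1, and without IgG1 replicate 2 it split into 60 higher and 47 lower. Prdm1, Xbp1, Irf4, Jchain and Mki67 differed by 0.29, -0.33, 0.09, 0.16 and 0.06, none of them called. BCMA was called higher in IgE plasma cells, with Tnfrsf17 at 7.62 and 5.91 on the IgG1 arrays (2.82, SE 0.33, adjusted p = 0.000408). Gcsam was higher by 2.48 (SE 0.23), at 6.23 and 5.50 on the IgG1 arrays. Some B cell genes were higher in IgE than in IgG1 plasma cells. These included Ptpn6 (1.57, adjusted p = 0.00453), Ly86 (1.32, adjusted p = 0.0413), Rel (1.22, adjusted p = 0.0192), Ikzf3 (1.18, adjusted p = 0.039) and Cd180 (1.03, adjusted p = 0.0391). By list, 4 of 26 surface receptors, 1 of 26 receptor signalling genes and 3 of 19 BAFF, CD40 and NF-kB genes were higher. Of 21 identity regulators and 23 presentation genes 0 were higher, against 0.785% of all genes. Bcl2l1 was lower in IgE than in IgG1 plasma cells by 1.25 (SE 0.25, adjusted p = 0.0242).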

How the data were processed

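RNA of sorted pools was amplified from 2 ng of total RNA and hybridised to Affymetrix Mouse Gene 1.0 ST arrays, per the labels' protocols. The deposited values are log2 signals. Per the submitters' processing notes they were made by RMA with R 2.15.2, a method of background correction, quantile normalization and summary over probes. The sources used here give no scan dates or batches, and the number of arrays limits the precision. Of 34760 probe sets, 21640 had 1 gene symbol, 1321 several and 11799 none. Each of 19937 genes was read from its probe set with the highest mean, and 12098 above the array median on at least 2 of 18 arrays were tested. The 18 arrays of the first experiment (6 groups) were fitted together with limma 3.58.1 in R 4.3.3 (lmFit and eBayes), two-sided, with Benjamini-Hochberg adjustment over all tested genes and a threshold of 0.05. The script was tested on simulated data. Promoter windows came from RefSeq (GRCm38.p6), and figures from matplotlib 3.10.9.

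The genes and lists (38 lists, 790 genes, of which 720 had a probe set) were chosen with earlier results of these data known, and so support nothing by themselves. Named genes were sort markers, list members, the 15 called genes with the largest difference in each direction and no overlap, and the 10 with the highest mean in each of the gained and lost classes. Alternatives were another filter, normalization, probe set rule, variance model, array weights, a replicate block, the arrays in the fit, other percentiles for the classes, and each array left out.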

Additional observations from a re-analysis of the deposited data

Results flagged for a closer look

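Of 239 named genes, 10 had 1 plasma cell array far from the other 3, by the gap to its nearest neighbour divided by the range of the 4 arrays (in brackets below), past the critical value of Dixon's test. Chance flags about 1 in 20 such groups. The array was replicate 4 for Bhlhe41 at 8.74 (0.876), replicate 2 for Cd86 at 5.90 (0.944), replicate 4 for Cox6a2 at 7.20 (0.925), replicate 3 for Il6ra at 5.58 (0.937), replicate 4 for Mef2c at 10.93 (0.89), replicate 1 for Rela at 8.30 (0.858), replicate 1 for S1pr2 at 6.15 (0.832), replicate 2 for Samd9l at 8.33 (0.833), replicate 3 for Syvn1 at 11.24 (0.857) and replicate 4 for Tusc3 at 6.16 (0.872). A further 12 named genes differed between IgE and IgG1 plasma cells in limma, so that their difference from naive cells depends on the isotype. The log2 difference of IgE from IgG1 was -1.25 for Bcl2l1, 1.03 for Cd180, -1.63 for Cd9, 2.55 for Fcer2a, 2.48 for Gcsam, 0.77 for Hyou1, 1.18 for Ikzf3, 1.32 for Ly86, 1.35 for Mybl1, 1.57 for Ptpn6, 1.22 for Rel and 2.82 for Tnfrsf17. These rest on 2 IgG1 arrays and on the spread of all 18 arrays, and their cause was not tested.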

How the results depend on the processing

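Leaving out each array in turn gave 3963 to 4812 called genes for IgE plasma cells against naive cells (2469 to 2901 higher, 1440 to 1911 lower), 2178 to 2642 against the IgE germinal centre (976 to 1152 higher, 1191 to 1508 lower) and 76 to 253 against IgG1 plasma cells (59 to 184 higher, 14 to 69 lower). The classes held 223 to 319 gained, 127 to 215 lost and 4040 to 4350 kept genes. Their rule was then applied to the arrays that remained, which by itself can admit more gained and lost genes. With only the arrays compared, 1114 genes were lower than in naive cells, and 0 differed between IgE and IgG1 plasma cells in limma (0 higher, 0 lower, with 1410 at an unadjusted p under 0.05). Housekeeping centring gave 9013 called genes against naive cells (862 higher, 8151 lower), 1558 kept genes, and 68 against IgG1 plasma cells (56 higher, 12 lower). In that last comparison 60 were higher after quantile normalization, array weights gave 46 (36 higher, 10 lower) and the replicate block 72 (56 higher). At the 60th percentile 184 genes were lost, and at the 75th 386 were gained, 275 lost and 1479 kept. Same-numbered arrays did not deviate together (correlations of -0.01, 0.04 and -0.01). Taken as deviations from means of few arrays, these values cannot show whether arrays shared a pool, so a pairing stays unknown. With the replicate block 4221 genes were called against naive cells. After housekeeping centring the sign turned for B2m (-0.89), Bcl2l1 (-0.32), Cd320 (-0.86), Cd53 (-0.90), Cdkn1b (-0.97), Ddit3 (-0.34), Ero1b (-0.74), Etv6 (-0.059), Itga4 (-0.31), Ly6e (-0.51), Mcl1 (-0.89), Mef2c (-0.99), Myd88 (-0.21), Ncl (-0.60), Plcg2 (-0.84), Pou2af1 (-0.48), Ppia (-0.91), Ppp1r15a (-0.88), S1pr2 (-0.95), Tcf3 (-0.23), Tcf4 (-0.34), Tlr4 (-0.65) and Tnfrsf13b (-0.12). The sign also turned for Mef2c with a further quantile normalization (-0.40) and Tk1 with the mean of its probe sets (0.17). Why these values moved was not tested.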
